A study of Mus musculus with 6 samples.

Results

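Antigen presentation by major histocompatibility complex (MHC) class I was examined in single-cell RNA sequencing of the aged mouse lung through 9 genes: H2-K1, H2-D1, H2-Q7, H2-T23, B2m, Tap1, Tap2, Tapbp and Nlrc5. Members were found by gene symbol, each symbol occurred on 1 row, and together they were 9 of the 31054 features counted. The lungs came from male C57BL/6 mice aged 21 months, with 1 mouse and 1 library per sample. The genotype of the 3 p16-DTR-labelled libraries was p16-CreERT2/R26-LSL-DTR, in which a Cre recombinase driven by the p16 gene and activated by tamoxifen can switch on a diphtheria toxin receptor. The 3 control libraries came from p16-CreERT2 mice, which carry the same Cre without the receptor. Both groups were given tamoxifen (5 days), then an interval of 2 weeks, diphtheria toxin (5 days) and 2 weeks of recovery, so that tamoxifen, toxin and Cre were common to all 6 mice. Lungs were digested with liberase, and each library mixed 20000 sorted CD45- cells with 9000 CD45+ cells. The immune share put in was set by this mixing, so shares of immune cells do not measure the share in the tissue.

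Class I molecules display short peptides from inside the cell to CD8 T cells and to receptors of natural killer cells. A heavy chain (here the classical chains H2-K1 and H2-D1, the Qa-2 chain H2-Q7 and the Qa-1 chain H2-T23) pairs with the light chain beta-2 microglobulin, the product of B2m. Peptides cut by the proteasome are pumped into the endoplasmic reticulum by the transporter made of Tap1 and Tap2, and tapasin, the product of Tapbp, holds the empty heavy chain next to that transporter. Nlrc5 encodes the class I transactivator, a nuclear regulator that acts at class I promoters. Interferon-gamma is a well-known inducer of the pathway, and endothelial and immune cells are generally rich in class I, whereas many parenchymal cells hold less.

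The 6 libraries held 13482 to 17332 barcodes and 254200305 to 344421685 UMIs (unique molecular identifiers, each standing for 1 captured RNA molecule), with medians of 16587.5 to 18149 UMIs per barcode. After a filter on genes, UMIs and mitochondrial share, 91156 cells were left, of which 70114 passed a gate on marker genes that assigned them to a cell type without using any of the 9 genes. Pairs of libraries shared 55 to 90 cell barcodes. Cdkn2a, which encodes p16, was 7.10, 8.57 and 7.31 CPM (UMIs of the gene per 1e6 UMIs) in the p16-DTR-labelled libraries against 1.15, 2.60 and 2.84 in the control libraries. Cdkn2a was thus not lower in the p16-DTR-labelled libraries. Whether p16-expressing cells were lost was not tested, and the groups are called by their labels throughout. A tdTomato entry had up to 94 UMIs in a p16-DTR-labelled library and 0 in each control library. Ptprc, which encodes the pan-immune marker CD45, Pecam1 of endothelium and Sftpc of alveolar type 2 cells were all present in every library. Levels below, also used to judge overlap, are CPM of the summed cells of 1 library and cell type, scaled by total UMIs alone. Fold changes given with them are from edgeR with TMM scaling between libraries, so they can differ from ratios of the printed levels. Since counting was at the RNA's 3′ end and captured RNA differs between genes, levels of different genes are not ranked against each other.

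All members except B2m and Nlrc5 lie in the MHC region of chromosome 17 (positions of GENCODE M21 on GRCm38, 1-based). Tapbp is at chr17:33915899-33929292 (+), H2-K1 at chr17:33996017-34000347 (-), Tap1 at chr17:34187553-34197225 (+), Tap2 at chr17:34203527-34216321 (+), H2-D1 at chr17:35262730-35267499 (+), H2-Q7 at chr17:35439155-35443773 (+) and H2-T23 at chr17:36029773-36032855 (-). B2m is at chr2:122147686-122153083 (+) and Nlrc5 at chr8:94434356-94527272 (+). Tap1 and the immunoproteasome gene Psmb9 (chr17:34181987-34187764, -) stand head to head and overlap by 212 bases, and Psmb8 (chr17:34197721-34201454, +) lies between Tap1 and Tap2.

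The upstream sequences of the heavy chains are printed because 3 of them share a stretch that bears elements of interferon and NF-kB signalling. Promoter windows were present in the RefSeq table (GRCm38.p6) for 7 of the 9 members. H2-K1, H2-D1 and H2-Q7 share an enhancer-like stretch made of an NF-kB-like element (GGGGATTCCC) followed by an interferon-stimulated-response-like element (read here as GAANNGAAA on the other strand), both in capitals and written 5′ to 3′ on the strand of the gene:
H2-K1, chr17:34000429-34000458 (-): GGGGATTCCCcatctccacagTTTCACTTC
H2-D1, chr17:35262923-35262952 (+): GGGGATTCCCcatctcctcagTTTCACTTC
H2-Q7, chr17:35439022-35439050 (+): GGGGATTCCCatctccccagTTTCACTTC
The stretch begins 111, 171 and 133 bases before the RefSeq start of H2-K1, H2-D1 and H2-Q7. The spacer between the elements is 11 bases in H2-K1 and H2-D1 and 10 in H2-Q7. In GENCODE M21 the H2-D1 stretch falls inside a longer 5′ exon.

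The whole upstream windows of H2-K1 and H2-Q7, without transcribed bases, show how far the likeness runs; the capitals mark the same elements. Local alignment of the windows gave 90.96% identity over 177 columns for H2-K1 and H2-D1, 88.1% over 168 columns for H2-K1 and H2-Q7, and 84.6% over 214 columns for H2-D1 and H2-Q7.
H2-K1, chr17:34000348-34000597 (-): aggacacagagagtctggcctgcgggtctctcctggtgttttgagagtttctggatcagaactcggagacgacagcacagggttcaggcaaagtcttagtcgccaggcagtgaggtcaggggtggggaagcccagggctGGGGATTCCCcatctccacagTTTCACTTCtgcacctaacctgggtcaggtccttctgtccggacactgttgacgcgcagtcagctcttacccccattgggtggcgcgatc
H2-Q7, chr17:35438905-35439154 (+): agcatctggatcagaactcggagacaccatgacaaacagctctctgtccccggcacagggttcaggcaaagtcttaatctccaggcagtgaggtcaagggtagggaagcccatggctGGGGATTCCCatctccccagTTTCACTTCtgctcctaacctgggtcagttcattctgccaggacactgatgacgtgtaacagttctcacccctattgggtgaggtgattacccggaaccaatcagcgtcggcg

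The B2m window has a different arrangement, with a full interferon-stimulated response element (GAAANNGAAA), a cyclic-AMP-response-like TGACG and a reversed CCAAT box in capitals:
B2m, chr2:122147437-122147685 (+): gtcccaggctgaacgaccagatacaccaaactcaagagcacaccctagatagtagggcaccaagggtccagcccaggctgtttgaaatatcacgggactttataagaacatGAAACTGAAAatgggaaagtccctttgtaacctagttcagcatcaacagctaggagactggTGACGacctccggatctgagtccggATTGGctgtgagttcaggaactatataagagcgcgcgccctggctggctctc
Over both strands of all 27025 RefSeq windows of the same span, GGGGATTCCC was in 0.0814%, GAANNGAAA in 6.34%, GAAANNGAAA in 3.04%, TGACG in 17.9%, CCAAT in 34.5% and the gamma-activated-site-like TTCNNNGAA in 7.18%. Among the 7 members with a window, GGGGATTCCC and GAANNGAAA were in 3 (H2-K1, H2-D1 and H2-Q7). GAAANNGAAA, whose spacing differs so that neither motif contains the other, was in 2 (H2-T23 and B2m). TGACG was in 5, CCAAT in 7 and TTCNNNGAA in 0. The letters of the NF-kB-like and interferon-response-like elements were set after reading these sequences, so the member counts describe the windows and test nothing.

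Each member had its own profile across 25 cell types with at least 20 cells in every library, given as the mean ± SD over all 6 libraries. H2-K1 was highest in natural killer cells (2242 ± 126), followed by CD4 T cells (1933 ± 99.7), mesothelial cells (1872 ± 380.2), CD8 T cells (1849.9 ± 91.3) and gamma-delta T cells (1792 ± 90.4). It was lowest in alveolar fibroblasts (215 ± 23.1), pericytes (198 ± 37.7) and ciliated cells (185 ± 22.6), 12.1-fold below natural killer cells. H2-D1 had another leader, nonclassical monocytes (2649.5 ± 179), and then neutrophils (2351 ± 283) and natural killer cells (2195 ± 113), with ciliated cells again last (238 ± 29.5). Of the 24 steps between neighbours in these orders, 7 for H2-K1 and 9 for H2-D1 exceeded the larger of the neighbours' SDs. For H2-K1 natural killer cells stood above CD4 T cells, while CD4 T, mesothelial, CD8 T and gamma-delta T cells did not differ from their neighbours among these types beyond the SD, and gamma-delta T cells stood above general capillary cells (1555 ± 51.0).

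The Qa chains were more unequal across types. H2-Q7 was concentrated in natural killer cells (860.5 ± 95.2), CD8 T cells (826 ± 48.8), CD4 T cells (675 ± 111) and gamma-delta T cells (496 ± 41.2), with general capillary endothelium next (423 ± 18.6). It was 26.5 ± 9.86 in classical monocytes and 6.65 ± 0.617 in alveolar fibroblasts, 129-fold below natural killer cells; free RNA from other cells in the droplets was not removed, and its part in such low levels was not tested. Natural killer and CD8 T cells did not differ beyond their SD, whereas CD8 T over CD4 T, CD4 T over gamma-delta T and gamma-delta T over general capillary cells did. H2-T23 was instead highest in venous endothelium (443 ± 23.7), beyond the SD of the next type, type 2 conventional dendritic cells (332 ± 39.1). Those dendritic cells, aerocytes (331 ± 22.1) and general capillary cells (327 ± 19.4) were within their spread of one another, and ciliated cells were last (23.5 ± 4.6).

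B2m was highest in nonclassical monocytes (3818 ± 429), ahead of the aerocytes of the alveolar capillaries (2801 ± 433) and general capillary cells (2633 ± 169.9). Alveolar type 2 cells (558 ± 89.5), pericytes (444 ± 72.9) and ciliated cells (129 ± 26.6) closed its order, each beyond the SD of the next. Tap1 and Tap2, the subunits of the transporter, were both highest in type 1 conventional dendritic cells, the specialists of cross-presentation, at 138 ± 18.4 and 135 ± 12.7. CD4 T cells came second for both (96.0 ± 13.6 for Tap1 and 115 ± 11.96 for Tap2). Their orders parted in pericytes, next for Tap2 at 113 ± 18.6 but low for Tap1 at 20.2 ± 4.5. Tapbp was highest in mesothelial cells (370.2 ± 31.3) and general capillary cells (249.7 ± 14.7). Nlrc5 was highest in T and natural killer cells: CD4 T (257 ± 24.2), CD8 T (253 ± 24.3), natural killer (181 ± 38.6) and gamma-delta T cells (168 ± 27.7) stood above B cells (77.7 ± 15.5) and general capillary cells (76.0 ± 8.87), which did not differ from each other beyond their SD. From aerocytes (67.0 ± 8.55) through type 1 conventional dendritic cells, nonclassical monocytes, the other endothelial types and interstitial macrophages to classical monocytes (49.6 ± 11.2), no step to the next type exceeded the SD. It was 4.93 ± 0.71 in alveolar fibroblasts, 1.63 ± 1.72 in alveolar type 1 cells and 1.55 ± 1.21 in ciliated cells.

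**Figure D1:**
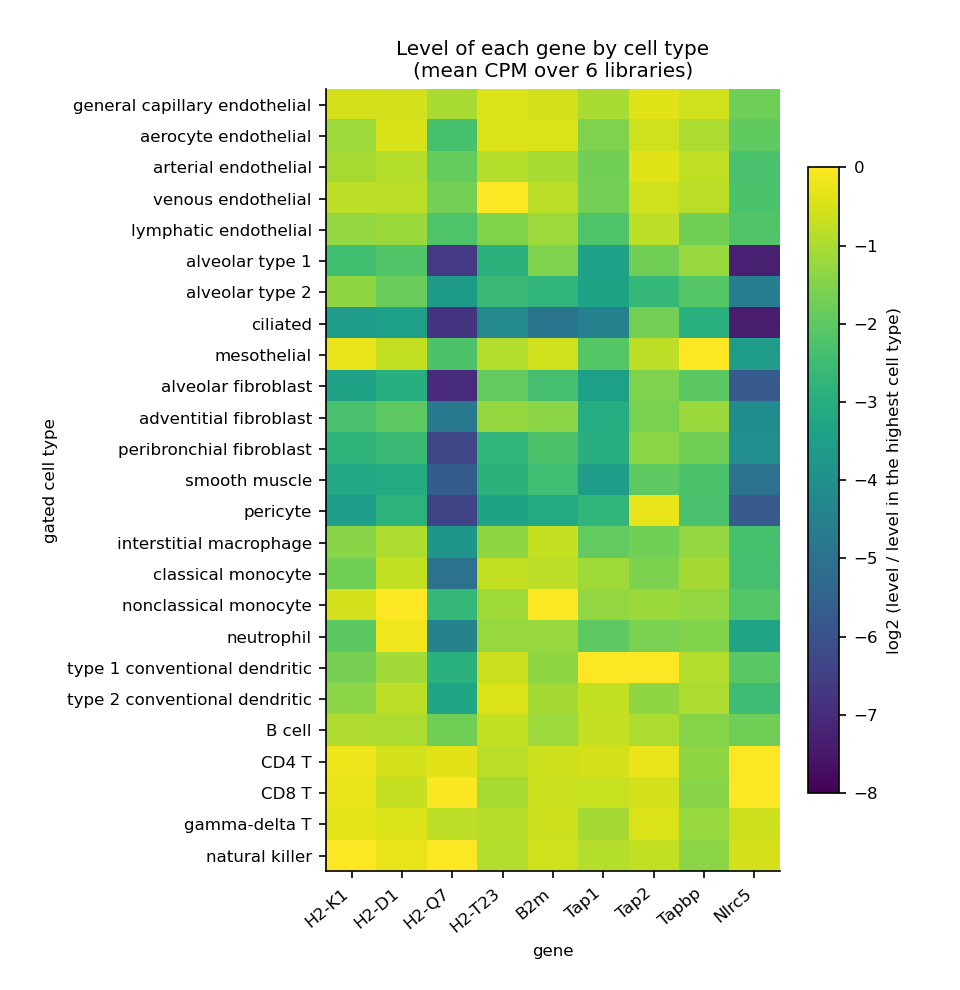
Mean level of each of the 9 genes (columns) in 25 gated cell types (rows), as log2 of the level over that of the gene's highest type, so that 0 marks the highest type. H2-Q7 and Nlrc5 run down to about 129-fold and 166-fold below their highest types, whereas Tap2 and Tapbp stay within 6.41-fold and 7.61-fold.

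The balance of the classical chains differed between cell types, which can be compared because the same pair of genes was measured in each. UMIs of H2-K1 per UMI of H2-D1 were 0.235 ± 0.0231 (SD, n = 6) in neutrophils and 0.432 ± 0.0226 in classical monocytes. Aerocytes had a ratio of 0.531 ± 0.0197, and their neighbours in the alveolar wall, the general capillary cells, 0.859 ± 0.00936, with no overlap between the libraries of these capillary types. Natural killer (1.02 ± 0.0175), CD4 T (1.07 ± 0.0338) and CD8 T cells (1.14 ± 0.0267) were at or above 1, and the highest ratios, within an SD of each other, were those of mesothelial (1.17 ± 0.0961) and alveolar type 2 cells (1.20 ± 0.0861). The ratio was added after the data were seen and is a description.

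**Figure D2:**
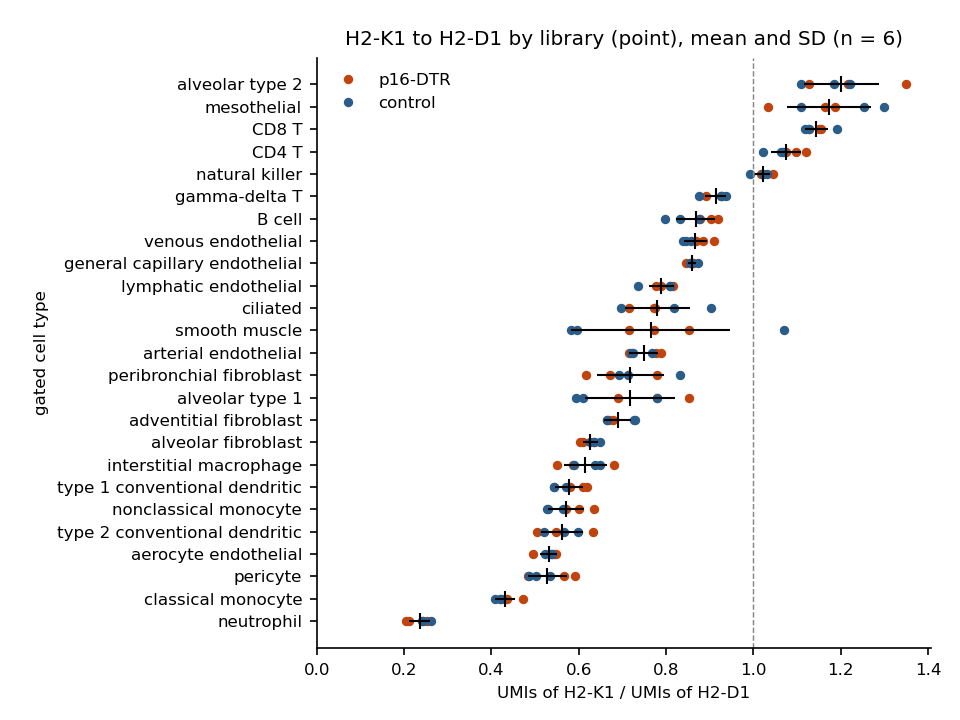
UMIs of H2-K1 divided by UMIs of H2-D1 in each of 25 gated cell types; points are the 3 p16-DTR-labelled libraries and the 3 control libraries, ticks and lines the mean and SD over all 6, and the dashed line a ratio of 1. Neutrophils lie at 0.235 on average and alveolar type 2 cells at 1.20.

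Across the 19 types with at least 50 cells in every library, members resembled each other to different degrees (Pearson's r of log2 levels over 19 types, a description, as types share libraries). H2-K1 and H2-Q7 had r = 0.962, Tap1 and Nlrc5 0.939, H2-K1 and Nlrc5 0.931, H2-T23 and B2m 0.924, and H2-T23 and Tapbp 0.919. Tap2 stood apart, with at most 0.617 (Tap1) and as little as 0.377 (H2-D1). Among 10428 other genes, those nearest to each member were H2-Q6 (0.938) and Psme1 (0.890) for H2-K1, Srgn (0.907) and Psmb9 (0.900) for H2-D1, and H2-Q6 (0.988) and Gimap8 (0.905) for H2-Q7. They were Il4ra (0.941) and Rnf115 (0.876) for H2-T23, Klf13 (0.913) and H2-T22 (0.899) for B2m, and Psmb8 (0.966) and Psmb9 (0.964), its neighbours in the genome, for Tap1. Crkl (0.871) and Sf3a2 (0.870) were nearest to Tap2, Il4ra (0.892) and Parp9 (0.892) to Tapbp, and Il2rg (0.945) and H2-T22 (0.942) to Nlrc5. H2-Q6 and H2-Q7 are close copies of each other, and how reads were divided between them upstream was not tested. Of the 411 windows of 90 bases in the last 500 bases of a transcript, 55 of H2-T23 (13.4%) also occur in another gene and none of the other 8 members' do.

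Summed over all gated cells of a library, the question was whether the p16-DTR-labelled libraries held more or less class I RNA than the controls. B2m was 1970.3, 1834 and 1947 CPM in the p16-DTR-labelled libraries and 1328, 1660.1 and 1574 in the controls, so every value of the former was above every value of the latter (log2 fold change 0.38, SE 0.11). H2-D1 was 1298, 1288 and 1360.3 against 889.9, 1141 and 1123 (0.37, SE 0.11), again without overlap. H2-K1 was 907, 938 and 1026 against 631, 842 and 847 (0.36, SE 0.13). Control 1 had the lowest value of each of these genes. H2-Q7 overlapped, at 184, 210.4 and 241 against 108, 175 and 190.0 (0.48, SE 0.21), and was 0.28 without control 1. In all, 6 of 9 members did not overlap, against a background of 8.31% of all genes. None passed the test, with edgeR adjusted p-values of 0.158 for B2m, 0.165 for H2-D1, 0.191 for H2-K1 and 0.243 for H2-Q7. No gene of the 21059 tested passed it (0%; 4649 had an unadjusted p under 0.05), while DESeq2 called 2229 genes, B2m, H2-D1 and Tapbp among them.

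The mix of cells moved with these sums. Immune cells made up 31.2%, 33.3% and 39.98% of gated cells in the p16-DTR-labelled libraries and 24.2%, 28.4% and 28.2% in the controls. Immune shares follow a fixed mixing of sorted cells and do not measure the tissue, and why they differed was not tested. Fibroblasts and other mesenchymal cells, low in class I, were 31.2%, 26.7% and 21.3% against 47.7%, 29.5% and 33.1%. In a sum over cells, more cells of a class I-rich type and more class I RNA per cell cannot be told apart. The mean over the 19 cell types with equal weight, added after the data were seen, does not depend on the shares of these types, though it still depends on the mix of cells within each type. On that scale B2m was 2063, 1856 and 1901.5 in the p16-DTR-labelled libraries and 1648, 1748 and 1708 in the controls. H2-Q7 was 264, 270.1 and 263 against 217, 238 and 244. H2-K1 was 1093 ± 31.3 against 997 ± 26.9 (SD, n = 3), H2-D1 1429.8 ± 40.7 against 1317 ± 48.4, H2-T23 212 ± 9.15 against 196 ± 7.41, and Tap2 75.6 ± 1.502 against 71.1 ± 0.377. These 6 members did not overlap between groups, against 8.5% of all genes. The log2 differences were smaller than in the sums, 0.19 for B2m and 0.13 for H2-K1. A two-sided exact permutation test gave p = 0.1 for each, the smallest that 3 libraries against 3 allow, so it could not reach 0.05. Tap1 (48.1 ± 1.18 against 44.6 ± 4.09), Tapbp (147 ± 6.996 against 140.4 ± 1.66) and Nlrc5 (76.3 ± 6.01 against 74.2 ± 7.63) overlapped, with exact permutation p-values of 0.2, 0.2 and 0.7.

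Cell type by cell type, most members were somewhat higher in the p16-DTR-labelled libraries, but few differences passed the test. Of 169 tests (9 members in 19 types, with Nlrc5 too low to test in ciliated cells and pericytes), 2 were called higher at an edgeR adjusted p under 0.05, H2-Q7 and Tap1 in CD4 T cells, and 0 lower. The background over all genes and types was 0.286% called higher, 0.415% called lower and 0.701% in either direction. An unadjusted p under 0.05 was found in 51 of the 169 (30.2%, against 13.7% of all genes), 47 of them with higher levels in the p16-DTR-labelled libraries. The log2 fold change was above 0 in 136 of 169 (80.5%, against 50.1% of all genes), with a median of 0.15, while the median over all genes was 0.00. All 3 p16-DTR-labelled libraries lay above all 3 controls in 37 tests (21.9%, against 7.99% of all genes) and below them in 5 (2.96%, against 11.5%). The tests are not independent of one another, since the 19 types come from the same 6 mice. Free RNA from other cells was not removed, and immune cells were a larger share of the p16-DTR-labelled libraries. The part of free RNA in these differences was not tested. The edgeR p-values set each group difference against the spread between these libraries, moderated over all genes of a cell type.

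**Figure D3:**
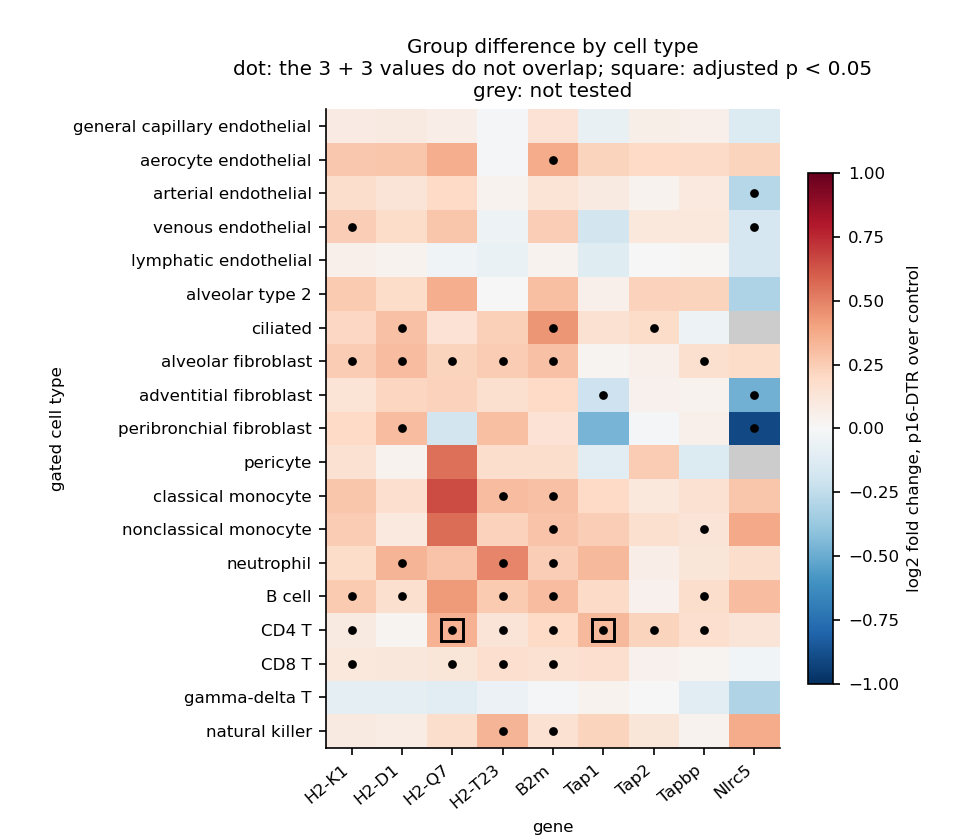
Log2 fold change (p16-DTR-labelled libraries over control, from edgeR) of each gene in each of 19 gated cell types; dots mark the 37 tests with no overlap above and the 5 below the controls, squares the 2 with an adjusted p under 0.05, and grey the 2 that were not tested. Gamma-delta T cells have 1 of 9 genes above 0, and Nlrc5 is above 0 in 8 of 17 types.

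B2m, the light chain needed by every class I heavy chain, did not overlap between groups in 10 of 19 types, always with higher values in the p16-DTR-labelled libraries, and its fold change was above 0 in 18. The background over all genes and types was 7.99% of tests wholly above the controls. In aerocytes it was 3454, 2722 and 3207 against 2457, 2388 and 2579 CPM. This was the lowest adjusted p of B2m in any type (log2 fold change 0.37, SE 0.08, edgeR adjusted p = 0.0907). With each library left out it ran from 0.0463 (without p16-DTR-labelled library 2, the 1 call in 6 fits) to 0.228 (without p16-DTR-labelled library 3). In nonclassical monocytes, where B2m was highest, the values were 4206, 4250.2 and 4075 against 3164, 3611 and 3599 (0.28, SE 0.08, edgeR adjusted p = 0.532). Each p16-DTR-labelled library exceeded the highest control, although no gene of that cell type passed the adjusted threshold in edgeR (831 had an unadjusted p under 0.05, and DESeq2 called 31). B cells gave 1841, 1934 and 1834 against 1485, 1511 and 1633 (0.31, SE 0.06). Alveolar fibroblasts gave 919, 719 and 817 against 649.8, 708 and 679 (0.30, SE 0.10, and 0.19 without p16-DTR-labelled library 1). The pattern of no overlap also held in ciliated cells, classical monocytes, neutrophils, CD4 T, CD8 T and natural killer cells.

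**Figure D4:**
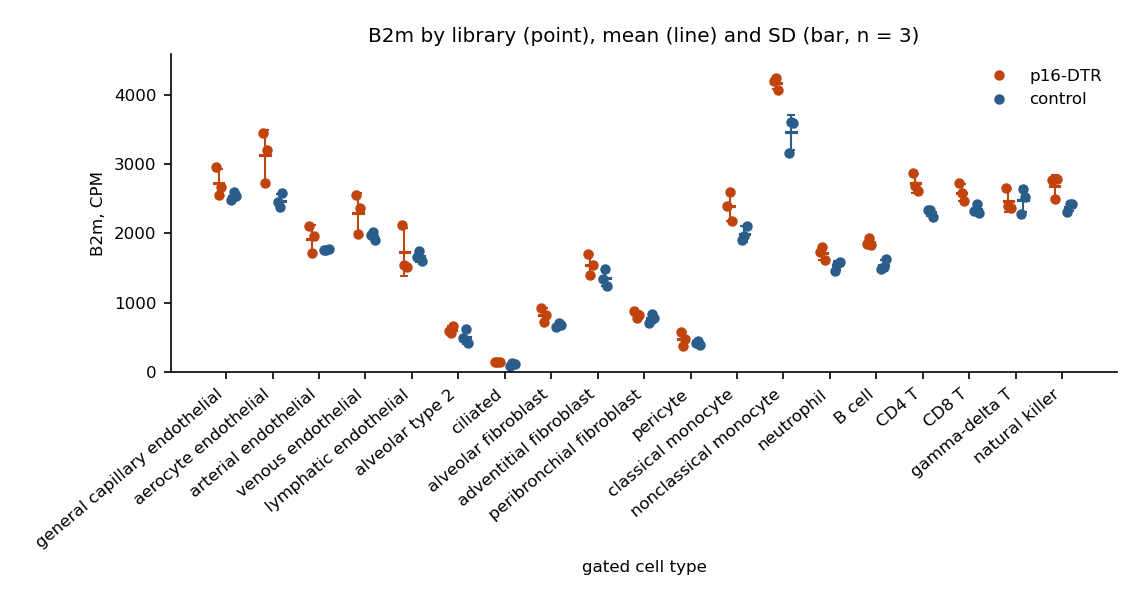
B2m in CPM (vertical axis, from 0) in 19 gated cell types, with 1 point per library and the mean and SD of each group of 3. The 3 p16-DTR-labelled libraries stand above the 3 controls in 10 types, among them nonclassical monocytes (4075 and more against 3611 and less), and overlap with them in gamma-delta T cells. Over all genes and types, 7.99% of tests stand wholly above the controls.

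Among the classical heavy chains, H2-K1 and H2-D1 each had a fold change above 0 in 18 of 19 types, the exception being gamma-delta T cells for both. Each lay wholly above the controls in 5 of the 19 types, against 7.99% of tests over all genes and types. H2-K1 was 1529.8, 1258 and 1403 against 1177, 1186 and 1207 in venous endothelium (0.25, SE 0.09, edgeR adjusted p = 0.211). In B cells it was 1184, 1342 and 1214 against 1003, 1038 and 1141 (0.26, SE 0.07, edgeR adjusted p = 0.427). The p16-DTR-labelled library 1 was the highest in venous cells and the lowest of its group in B cells, and control 1 was the lowest of all 6 libraries in both. H2-D1 in neutrophils, the type with the lowest ratio of H2-K1 to H2-D1, was 2575, 2681 and 2422 against 1877, 2259 and 2293 (0.34, SE 0.09, edgeR adjusted p = 0.24). In alveolar fibroblasts it was 408, 327 and 397 against 303, 314 and 315 (0.31, SE 0.09, edgeR adjusted p = 0.112). In ciliated cells, the type poorest in H2-D1, the values were 266, 251 and 267 against 191, 222 and 232.

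H2-T23, whose product Qa-1 is read by the CD94 and NKG2 receptors of natural killer cells, separated the groups in 7 of 19 types. These were alveolar fibroblasts, classical monocytes, neutrophils, B, CD4 T, CD8 T and natural killer cells, with the p16-DTR-labelled libraries above in each. Over all genes and types, 7.99% of tests lay wholly above the controls. Neutrophils had 226, 222 and 203 against 168, 151 and 171 CPM, the largest fold change of H2-T23 in any type tested (0.49, SE 0.10, edgeR adjusted p = 0.148). Natural killer cells had 257, 240.3 and 287 against 190.4, 209 and 214 (0.34, SE 0.09, edgeR adjusted p = 0.166). In venous endothelium, where H2-T23 was highest, the groups overlapped at 466, 403 and 429 against 453, 445 and 463. H2-Q7 had the highest fold change in classical monocytes (0.65, SE 0.24, edgeR adjusted p = 0.44), a type in which it is scarce, at 28.6, 45.1 and 22.9 against 17.5, 20.2 and 24.9. There the groups overlapped, as p16-DTR-labelled library 3 was below control 3, and without p16-DTR-labelled library 2 the fold change was 0.34. In CD8 T cells, where H2-Q7 is abundant, the values were 845, 913 and 816 against 774, 800.0 and 806, with a fold change of 0.12 (SE 0.07).

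For the transporter and tapasin, median log2 fold changes over the tested types were 0.09 for Tap1, 0.07 for Tap2 and 0.10 for Tapbp, beside 0.16 for H2-D1, 0.17 for H2-T23, 0.18 for H2-K1, 0.20 for B2m and 0.23 for H2-Q7. The difference between genes was not tested. Tapbp in alveolar fibroblasts was 100.005, 93.6 and 93.8 against 87.4, 86.96 and 88.2 (0.16, SE 0.05, edgeR adjusted p = 0.15). Tap1 in the same cells was 13.3, 12.4 and 12.3 against 12.997, 11.6 and 13.4, with full overlap and a fold change of 0.03. That fold change ran from -0.02 to 0.06 with a library left out. In adventitial fibroblasts Tap1 was lower in every p16-DTR-labelled library, at 16.6, 12.9 and 16.9 against 17.01, 19.03 and 17.5 (log2 fold change -0.20, SE 0.12, edgeR adjusted p = 0.449), and -0.08 without library 2 of that group. Type 1 conventional dendritic cells, the type richest in Tap1, had fewer than 50 cells in a library and were not tested. Their Tap1 was 135, 116 and 118 against 145, 158 and 156, and their B2m was 1891, 1674 and 1627 against 1307, 1256 and 1356. With as few as 28 cells (control 2), this type has no share of all genes to read these values against. Its other members are not given by group, and a contrast between members was not tested.

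The fold change of Nlrc5 was above 0 in 8 of 17 types. It lay wholly above the controls in 0 types and wholly below them in 4, arterial and venous endothelium and adventitial and peribronchial fibroblasts, where 10.2% to 13.7% of all genes lay below. Over all gated cells its fold change was 0.32 (SE 0.23), with overlap, and 0.13 to 0.49 with a library left out (lowest without control 1, highest without control 3). Whether Nlrc5 differed from the other members was not tested. In adventitial fibroblasts it was 11.6, 11.05 and 14.5 against 18.1, 17.3 and 16.3 (log2 fold change -0.48, SE 0.12, edgeR adjusted p = 0.119). In peribronchial fibroblasts it was 11.5, 8.76 and 10.8 against 14.6, 18.9 and 27.5 (log2 fold change -0.90, SE 0.28, edgeR adjusted p = 0.138), with as few as 13 UMIs in a library. In arterial endothelium it was 46.5, 45.2 and 47.9 against 57.7, 52.1 and 62.4 (log2 fold change -0.29, SE 0.11, edgeR adjusted p = 0.331). Natural killer cells, with far more Nlrc5, had 182, 202 and 231 against 117, 192 and 164 (0.37, SE 0.15, edgeR adjusted p = 0.417), with p16-DTR-labelled library 1 below control 2 and a fold change of 0.20 without control 1.

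CD4 T cells held both calls. H2-Q7 was 747, 850.5 and 701 CPM in the p16-DTR-labelled libraries and 584, 579 and 589 in the controls (766 ± 76.5 against 584 ± 4.95, SD, n = 3). The difference passed the test (log2 fold change 0.35, SE 0.08, edgeR adjusted p = 0.0275). Tap1 was 103, 109.6 and 111 against 88.3, 81.7 and 82.1 (108 ± 4.64 against 84.0 ± 3.7, SD, n = 3) and passed as well (0.32, SE 0.07, edgeR adjusted p = 0.0293). Of all genes tested in CD4 T cells, 5.59% were called in either direction and 2.07% as higher. Tap2 was 122, 127 and 128 against 101, 106 and 106 (0.23, SE 0.06, edgeR adjusted p = 0.0806), and B2m was 2869.9, 2689.7 and 2606 against 2345, 2332 and 2239 (0.20, SE 0.06, edgeR adjusted p = 0.114). In all, 7 of the 9 members did not overlap, against 14.6% of all genes, and H2-D1 and Nlrc5 did. Each call stood in 1 of the 6 fits that left out a library (H2-Q7 without p16-DTR-labelled library 3, Tap1 without library 1), with adjusted p-values of 0.0226 to 0.0955 for H2-Q7 and 0.0483 to 0.115 for Tap1. Adjusted over all cell types together the p-values were 0.0956 and 0.0993, and DESeq2 gave adjusted p-values of 0.00106 for H2-Q7 and 0.0787 for Tap1. With a replicate block in edgeR, H2-Q7 kept its call and Tap1 did not.

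The makeup of the gated CD4 T cells also differed between the groups. These were 200, 327 and 409 cells in the p16-DTR-labelled libraries and 226, 308 and 380 in the controls. Cells with a UMI of Il17a, Il17f or Il23r, genes of the interleukin 17 programme, were 12% (exact 95% binomial interval 7.84 to 17.3), 2.14% (0.865 to 4.36) and 6.85% (4.60 to 9.74) in the p16-DTR-labelled libraries. In the controls they were 38.5% (32.1 to 45.2), 42.5% (36.9 to 48.3) and 31.8% (27.2 to 36.8), so the groups were far apart; the intervals cover counting error only. With each cell thinned to 3000 UMIs the shares were 8.5%, 0.613% and 3.76% against 32.6%, 34.8% and 23.8%, leaving out 0, 1 and 10 against 2, 3 and 2 shallower cells. B cells, which should lack these genes, had 0.489% to 1.38% in any library, at median depths of 12307 to 14522 UMIs per cell against 13243 to 15955.5 in CD4 T cells. Without those cells, a step added after the data were seen, H2-Q7 was 776, 866 and 711 against 654, 619.998 and 639, and the difference no longer passed (0.27, SE 0.09, edgeR adjusted p = 0.23). Tap1 was 107, 107 and 110.01 against 99.9, 99.5 and 82.9 (0.18, SE 0.09, edgeR adjusted p = 0.483). The remaining cells were 176, 320 and 381 against 139, 177 and 259, so the controls lost more cells. Whether these fold changes differed from those in all CD4 T cells was not tested. Neither gene overlapped between groups in the remaining cells. The share of all genes without overlap is not given for these cells, while in all CD4 T cells 14.6% lay wholly above the controls. By the edgeR test, 0.639% of all genes were called in either direction in the remaining cells. Cells with a UMI of Foxp3, the regulatory T cell factor, were 12.5%, 9.17% and 13.9% against 11.5%, 8.12% and 10.3%, and at most 0.247% of B cells had one. Without them both calls stood (H2-Q7 0.36, edgeR adjusted p = 0.0269; Tap1 0.35, edgeR adjusted p = 0.0444), with 6.3% of all genes called.

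**Figure D5:**
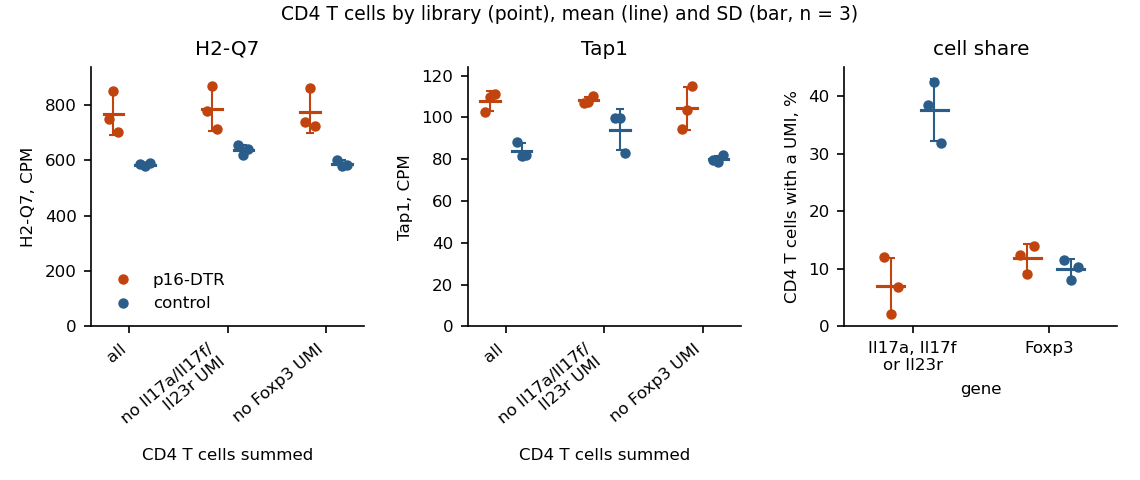
H2-Q7 (left) and Tap1 (middle) in CPM in all CD4 T cells, in those without an interleukin 17 programme UMI and in those without a Foxp3 UMI, and the share of CD4 T cells with such a UMI in percent (right); points are libraries, lines and bars the mean and SD of 3. Controls hold 31.8% to 42.5% interleukin 17 programme cells and the p16-DTR-labelled libraries 2.14% to 12%.

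Counts in other cell types follow, and differences between single types were not tested. In gamma-delta T cells 1 of 9 members had a fold change above 0 and none lay wholly above the controls, against 7.05% of all genes. There H2-K1 was 1837, 1704 and 1672 against 1774, 1889.7 and 1875 (log2 fold change -0.09, SE 0.07, and -0.14 to -0.06 with a library left out). B2m was 2660.3, 2398 and 2366 against 2288, 2646 and 2525, and Nlrc5 139.8, 160.1 and 154 against 150.2, 206 and 199 (log2 fold change -0.30, SE 0.13, edgeR adjusted p = 0.569). In general capillary endothelium, with at least 2055 cells per library, no member lay wholly above or below the controls, against 9.73% of all genes above and 19.98% below. H2-K1 was 1635, 1507 and 1592 there against 1509, 1526 and 1563 (0.08, SE 0.06, edgeR adjusted p = 0.444), and the median over members was 0.06. Aerocytes, also alveolar capillary cells, had a median of 0.23 with 8 of 9 members above 0. All 9 members had a fold change above 0 in alveolar fibroblasts, classical and nonclassical monocytes, neutrophils, B, CD4 T and natural killer cells. In alveolar fibroblasts 6 of 9 did not overlap, against 11% of all genes.

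Whether the group difference itself differed between lineages was tested in 1 model over endothelial, epithelial, mesenchymal, myeloid and lymphoid sums with the library as block. None of 90 tests (9 members, 10 pairs of lineages) passed with edgeR, against 0.307% of all genes, and 3 had an unadjusted p under 0.05. These were Nlrc5 in mesenchymal against myeloid cells (difference of log2 fold changes -0.48, SE 0.17, edgeR adjusted p = 0.202) and against lymphoid cells (-0.44, SE 0.16, edgeR adjusted p = 0.244), and H2-T23 in endothelial against myeloid cells (-0.32, SE 0.11, edgeR adjusted p = 0.23). A difference between lineages was therefore not shown for any member.

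The rest of the pathway was followed through lists of its other genes, over the same 19 types and read against the same backgrounds. Of 95 tests of immunoproteasome subunits and activator genes, 2 were called higher and 0 lower, both in CD4 T cells. The share of all genes called in either direction was 5.59% in CD4 T cells and 0.701% over all types. Psmb9, the head-to-head neighbour of Tap1, was 172, 205 and 196 against 128, 150.2 and 146 (0.39, edgeR adjusted p = 0.029), and Psmb10, another immunoproteasome subunit, was 110.2, 129 and 104 against 85.2, 79.1 and 83.1 (0.43, edgeR adjusted p = 0.0255). The constitutive proteasome subunits Psmb5, Psmb6 and Psmb7, which the immune subunits replace, had 0 calls in 57 edgeR tests. Among the other heavy chains 1 of 172 tests was called, H2-T22 in CD4 T cells at 156, 173 and 156 against 123, 118 and 127 (0.35, edgeR adjusted p = 0.0224). Without interleukin 17 programme cells none of the 3 passed: H2-T22 was 0.19 (edgeR adjusted p = 0.387), Psmb9 0.20 (edgeR adjusted p = 0.36) and Psmb10 0.34 (edgeR adjusted p = 0.248). With each library left out in turn, Psmb9 kept its call in 2 of 6 fits, Psmb10 in 1 and H2-T22 in 3.

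The list of peptide loading in the endoplasmic reticulum had calls in endothelium and fibroblasts as well as in CD4 T cells, with 6 of 95 tests called higher and 0 lower. Of all genes, 1.95% were called in either direction in general capillary cells, 1.41% in venous endothelium and 0.411% in alveolar fibroblasts. Calr, the chaperone calreticulin of the loading complex, rose in general capillary cells (455, 493 and 459 against 379, 391 and 349.7, log2 fold change 0.37, edgeR adjusted p = 0.0392). It also rose in venous endothelium (502, 509 and 508 against 378, 377 and 367, 0.46, edgeR adjusted p = 0.0297) and in alveolar fibroblasts (375, 429 and 407 against 296, 303 and 306, 0.45, edgeR adjusted p = 0.0466). Canx, the membrane-bound chaperone calnexin, rose in general capillary (0.32, edgeR adjusted p = 0.0367) and venous cells (0.36, edgeR adjusted p = 0.0446). Both chaperones also fold many other glycoproteins. With each library left out in turn, Calr kept its call in 0 of 6 fits in general capillary cells, 0 in venous cells and 1 in alveolar fibroblasts, and Canx in 1 and 0. Tapbpl, the tapasin-like peptide editor, rose in CD4 T cells (58.0, 74.1 and 52.3 against 34.04, 31.5 and 31.7, 0.88, edgeR adjusted p = 0.00647) and kept its call in 6 of 6, but was 0.53 (edgeR adjusted p = 0.164) without interleukin 17 programme cells.

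Ifng, the interferon-gamma gene, could be tested in 4 lymphocyte types and rose in CD4 T cells, from 45.4, 27.4 and 28.3 in the controls to 63.6, 76.0 and 87.5 (1.16, edgeR adjusted p = 0.00867), with 0.80 (edgeR adjusted p = 0.078) without interleukin 17 programme cells. In the other types tested its fold change was 1.32 in gamma-delta T cells, 0.81 in CD8 T cells and 0.14 in natural killer cells, none of them called, and a difference from CD4 T cells was not tested. Of 234 tests of regulators, 2 were called higher and 3 lower, against 0.286% and 0.415% of all genes over all types. In CD4 T cells 5.59% of all genes were called in either direction. Ifngr2, a chain of the interferon-gamma receptor, fell in CD4 T cells (56.7, 39.1 and 47.6 against 103, 117 and 122, log2 fold change -1.32, edgeR adjusted p = 0.00105), and it also passed without the interleukin 17 programme cells (-1.24, edgeR adjusted p = 0.0102). Irf8 (1.38, edgeR adjusted p = 0.0114) and Irf2 (0.36, edgeR adjusted p = 0.0289), factors of the interferon regulatory family, rose in the same cells. Irf8 was low there, at 11.8, 15.2 and 11.4 against 3.32, 5.29 and 5.39, with as few as 12 UMIs in a library, and free RNA was not removed. Without the interleukin 17 programme cells neither passed, with 1.06 for Irf8 (edgeR adjusted p = 0.132) and 0.20 for Irf2 (edgeR adjusted p = 0.389). Socs1, a feedback inhibitor of interferon signalling, fell in general capillary cells (11.96, 15.3 and 12.7 against 27.5, 20.7 and 27.6, log2 fold change -0.88, edgeR adjusted p = 0.0367) and venous cells (9.11, 7.93 and 11.95 against 20.5, 22.7 and 22.1, -1.16, edgeR adjusted p = 0.0225). Each Socs1 call stood in 2 of 6 fits without a library, as did that of Irf2, while Irf8 stood in 5, and Ifng and Ifngr2 in 6.

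On the receptor side, 68 tests gave 2 calls in each direction, with both lower calls in CD4 T cells. Over all types 0.701% of all genes were called in either direction, and in CD4 T cells 5.59%. Lilrb4a, an inhibitory receptor of a family that includes class I receptors, rose in general capillary cells (24.6, 29.5 and 20.02 against 10.7, 13.7 and 16.1, 0.91, edgeR adjusted p = 0.0469) and venous cells (12.1, 6.54 and 8.41 against 2.92, 2.52 and 1.47, 2.01, edgeR adjusted p = 0.0343), there on as few as 12 UMIs in a library. Immune cells (101 CPM and more in classical monocytes) were also a larger share of the p16-DTR-labelled libraries, and free RNA was not removed. In alveolar fibroblasts of the same libraries Lilrb4a was 0.76, 0.394 and 0.215 CPM against 0.249, 0.157 and 0.333, and 0.27% to 0.753% of these cells had a UMI. In general capillary cells 21.8%, 25.7% and 19.4% had one against 10.2%, 13.95% and 14.7%, at lower median depths (14739 to 16072 against 22545.5 to 24906 UMIs). Thinned to 3000 UMIs, general capillary cells had 6.28%, 7.51% and 5.45% against 2.16%, 3.12% and 4.62%, and alveolar fibroblasts at most 0.181%. The part of free RNA or of doublets in the Lilrb4a values was not tested. Lilrb4a fell in CD4 T cells (21.3, 17.1 and 18.5 against 31.8, 25.7 and 29.9, log2 fold change -0.67, edgeR adjusted p = 0.0293), as did Klrk1, the NKG2D receptor of class I-like ligands (48.9, 54.5 and 74.0 against 95.2, 130.4 and 99.6, log2 fold change -0.90, edgeR adjusted p = 0.0121). Without interleukin 17 programme cells both had fold changes above 0 in CD4 T cells, 0.49 for Klrk1 and 0.31 for Lilrb4a, and neither passed the test (edgeR adjusted p = 0.387 and 0.569). With a library left out, the Klrk1 call stood in 5 of 6 fits, and those of Lilrb4a in 0 (general capillary), 1 (venous) and 2 (CD4 T).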

How the data were processed

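The deposited values are whole-number UMI counts for every gene in every barcode, not normalized, made with Cell Ranger 8.0.1 on mm10, per the submitters' processing notes; the annotation release, cell calling and strand setting are not given in the sources used here. Barcodes with at least 300 genes, 500 UMIs and at most 15% mitochondrial UMIs were kept. A cell was assigned to 1 of 31 marker classes when at least 3 markers and a share of 0.5 of the class's markers were above the gene's mean over cells, 0.15 ahead of the next class. T cells needed 2 CD3 genes. Cells with 2 markers of another lineage stayed unassigned, which is how doublets were treated. Mesothelial cells were not checked against epithelial or mesenchymal markers, and myeloid and lymphoid classes shared the immune lineage. Doublets of these kinds were therefore not removed by this rule. No doublet caller was run and free RNA was not removed. The 3 T cell classes share their CD3 markers. Counts were summed per library and cell type and tested with edgeR 4.0.16 in R 4.3.3 (quasi-likelihood test, filterByExpr, TMM, group alone). P-values were adjusted by Benjamini-Hochberg over all genes of a cell type at 0.05. Standard errors (SE) were derived from that test, as the absolute log2 fold change over the square root of its F statistic. The edgeR test was tried on counts simulated from general capillary and CD4 T cells, and the other steps had no such trial. Sums, gates and plots were made in Python 3.11.15 (matplotlib 3.10.9, numpy 2.4.6, pandas 2.3.3, scipy 1.17.1).

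The members and lists were chosen with earlier results of these data known. The scoring rule of the gate, the limit of 20 cells for levels, the equal-weight mean, the chain ratio and the CD4 T subsets were chosen after the data were seen. Named genes were the members, every list gene called in a cell type, and the 2 genes with the highest Pearson correlation to each member of log2 (mean CPM + 1) over the 19 tested types, among genes with a mean of at least 10. Library means are given as ± SD. Alternatives were RLE or library-size scaling, DESeq2 1.42.0, no filter on low counts, a replicate block, each library left out, a stricter gate, a stricter cell filter (1000 UMIs, 5% mitochondrial) and adjustment over all types. The sums first planned over all retained cells use gated cells here. H2-Q6 and H2-Q7 may share reads, and Tap1 and Psmb9 overlap.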

Additional observations from a re-analysis of the deposited data

How the results depend on the processing

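The count of 2 member calls over 19 types was 2 with RLE factors, a stricter gate or a stricter cell filter. It was 4 with library size as scaling (B2m and Tap2 added, in CD4 T cells), 9 with DESeq2, 8 with no filter on low counts (among them Nlrc5 lower in peribronchial fibroblasts), 1 with a replicate block, 0 with adjustment over all cell types and 0 to 1 with a library left out. DESeq2 called more of all genes too, 31 to 1404 per cell type against 0 to 638 with edgeR. The share of all genes called is not given here for the other alternatives, so these counts are no added support for the members. Without p16-DTR-labelled library 2, the 1 call was B2m in aerocytes. Over all gated cells DESeq2 called H2-D1 (0.38, adjusted p = 0.0154), B2m (0.39, adjusted p = 0.00582) and Tapbp (0.21, adjusted p = 0.0431). In CD4 T cells without interleukin 17 programme cells, the fold changes of Klrk1 (0.49) and Lilrb4a (0.31) turned positive. The causes were not tested. The sign was the same in all 13 alternatives for 130 of 169 member tests, and tests above 0 numbered 124 to 143 with a library left out. Leaving out some 1 library moved the fold change by over 1.5 times in 112 of the 169. Same-numbered libraries correlated at 0.146, -0.051 and 0.193, and differently numbered ones at -0.205 to 0.038. The labels do not give the numbers as pairs of mice, so the main fits used group alone, and a shared batch was not tested. With the block, the edgeR adjusted p was 0.0402 for H2-Q7 and 0.0663 for Tap1 in CD4 T cells. The fewest cells per library were 64 in pericytes and 69 in natural killer cells.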
